A study of Rattus norvegicus with 24 samples.

Results

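This account concerns the genes that mark T cells and their precursors in 24 expression arrays of rat thyroid gland. Of 10 listed genes, 9 were matched to a probe by the gene name in the scanner files, at 1 probe per gene: Rag1, Dntt and Ptcra, called thymus-only here, and Cd3d, Cd3e, Cd3g, Cd8a, Cd8b and Lck, called general T cell genes. The remaining gene, Themis, had no match and was not analysed here. The whole array set holds 26276 gene names on 30367 non-control probes, of which 23414 probes, with 20290 names, were bright enough to be tested. The glands came from RccHan Wistar pups aged 35 ± 3 days. In the acrylamide groups the dams received acrylamide in drinking water (3 mg per kg of body weight daily) beginning on gestational day 6, and exposure of the pups continued until they were killed, while control animals drank tap water. Both treatments were sampled in females at night (10 PM), males at night (10 PM) and females in the morning (10 AM), with 4 arrays in each of the 6 groups. Nothing in the labels says which animal a replicate came from, so the p-values reflect the spread among these samples, which may be technical.

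T cells recognise antigen through a receptor that signals by way of the CD3 chains, and the kinase Lck, carried by the CD4 or CD8 coreceptor, starts that signal. Precursors in the thymus first assemble the receptor genes with the recombinase encoded by Rag1 and Rag2, while the polymerase encoded by Dntt adds bases at the joints. The product of Ptcra pairs with the new beta chain to form the pre-T cell receptor. Mature T cells outside the thymus keep Cd3d, Cd3e, Cd3g and Lck but largely lose Rag1, Dntt and Ptcra, although early B cell precursors in bone marrow also use Rag1 and Dntt. The rodent thyroid is normally poor in lymphocytes, and thymic tissue beside or within the gland is a known incidental finding in histology.

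The arrays read each gene through a probe of 60 bases, and 5 of these probes are given here. They lie, on the rn4 build named in the file headers, at chr1:246231457-246231516 (Dntt, plus strand), chr9:10100889-10100948 (Ptcra, plus), chr8:47950313-47950372 (Cd3e, minus), chr4:104542505-104542564 (Cd8b, plus) and chr5:148713169-148715276 (Lck, minus). The Lck interval is longer than its probe, so that probe joins separate stretches of the genome. Sequences are in lower case, 5′ to 3′, with no base singled out.
Dntt: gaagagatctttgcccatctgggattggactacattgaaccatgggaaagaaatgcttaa
Ptcra: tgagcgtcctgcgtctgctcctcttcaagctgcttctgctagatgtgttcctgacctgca
Cd3e: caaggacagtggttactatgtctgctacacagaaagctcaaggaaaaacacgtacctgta
Cd8b: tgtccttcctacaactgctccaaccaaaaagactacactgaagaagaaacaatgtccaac
Lck: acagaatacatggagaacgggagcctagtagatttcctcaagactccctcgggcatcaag
The remaining probes are at chr3:86781370-86781429 for Rag1 (minus strand), chr8:47936669-47936728 for Cd3d (plus), chr8:47924376-47924435 for Cd3g (minus) and chr4:104593483-104593542 for Cd8a (plus). The 3 CD3 probes fall within 26.0 kb of chromosome 8 and both CD8 probes within 51.0 kb of chromosome 4. Gene structure on rn4 was not used here, so no exon or intron is named.

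Rag1 and Dntt followed each other closely over the arrays (r = 0.94 within sex and time), but other pairs were closer, such as Cd3e and Cd3g (0.98). Rag1 was well above background on 10 and Dntt on 13 of 24 arrays. The start regions of Rag1 and Dntt are given here, and shared regulation was not tested. These are the 250 bases before the annotated start, credited to RefSeq on build GRCr8, in the direction of transcription, with the Rag1 window at chr3:108383185-108383434 (minus strand) and the Dntt window at chr1:249805552-249805801 (plus strand). Capitals mark matches, on either strand, to the E box CANNTG, the Runx motif TGTGGT, the Tcf/Lef motif CTTTGA and the Ets motif GGAAGT.
Rag1: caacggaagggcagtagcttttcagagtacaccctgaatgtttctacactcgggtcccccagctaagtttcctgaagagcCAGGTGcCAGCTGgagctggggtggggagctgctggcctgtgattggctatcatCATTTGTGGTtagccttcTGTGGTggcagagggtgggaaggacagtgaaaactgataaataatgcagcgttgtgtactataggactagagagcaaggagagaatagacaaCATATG
Dntt: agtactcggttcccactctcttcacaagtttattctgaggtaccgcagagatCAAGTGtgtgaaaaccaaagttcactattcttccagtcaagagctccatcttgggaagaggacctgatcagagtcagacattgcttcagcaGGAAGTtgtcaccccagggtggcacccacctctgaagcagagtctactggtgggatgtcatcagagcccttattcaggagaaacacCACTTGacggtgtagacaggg
The Rag1 window holds 4 E boxes and 2 Runx matches, 1 of which overlaps an E box. The Dntt window holds 2 E boxes and 1 Ets match. Of 33469 windows of this length in the table, 65.5% hold an E box, 14.5% a Runx match, 13.9% a Tcf/Lef match and 19.2% an Ets match. Among the 9 listed genes with an entry, an E box was found for 6, a Runx match for 2, a Tcf/Lef match for 1 and an Ets match for 4. These 9 are not the 9 genes with a probe: they include Themis, which holds an E box, and leave out Cd8b, which had no entry. These are letter matches only.

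Levels below are log2 of the processed signal minus the 75th percentile of the array, so 0 stands for that percentile and 1 unit for a doubling. They can be compared across arrays for a gene but not between genes. Per array, 71.5% to 82.3% of spots lay well above background, and the lowest such level ranged from -7.75 to -5.78 by array. The thyroid label was checked with Tg, which encodes the hormone precursor thyroglobulin: it lay between 6.43 and 9.27 on 23 arrays and at -0.85 on acrylamide replicate 1 from the morning females. On that array the mean of 12 follicular genes was -3.45, against 1.21 to 2.73 on the others, so it goes against its tissue label. Without it the probes passing in females in the morning numbered 18, against 429 with it, and the members' median there is given with and without it. Acrylamide replicate 2 from the morning females and acrylamide replicate 3 of females at night stood apart in the genes described here. The members' medians for acrylamide against control in their own strata are likewise given without them. By the scanner file names, night arrays carry scan number 1 and morning arrays scan number 2. The slides were separate too, with 1 for females at night, 1 for males at night and 2 for females in the morning. At night all acrylamide arrays lay in row 2 and all control arrays in row 1, so treatment and row cannot be told apart there. Members with 2 or 10 spots per array had a median SD between spots of 0.06 to 0.24. No spot of a member was saturated. The number of arrays limits precision.

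By their median SD the T cell genes varied more than the tested probes inside every group. The median SD over the 9 members was 2.01 in acrylamide and 0.94 in control females at night, 1.71 in acrylamide and 1.92 in control males at night, and 3.33 in acrylamide and 1.05 in control females in the morning (n = 4 each). The median SD over all tested probes was 0.23 and 0.18, 0.40 and 0.25, and 0.45 and 0.25 in the same groups. The members' SDs include values not well above background and Rag1, which was not tested, and probes were not matched for level. Group SDs were 0.48 to 2.92 for Cd3d and 0.14 to 0.90 for Ptcra, both well above background on every array. Cd3g, the gamma chain of CD3, ranged from -4.97, not well above background on the array low in Tg, to 4.41. Rag1 ranged from -8.14 to 1.12, Dntt from -7.88 to 1.25, the coreceptor chain Cd8a from -8.37 to 0.59, Cd3e from -8.36 to -0.39, Cd8b from -6.14 to -0.39 and Lck from -6.26 to -0.90. The low ends of these ranges were not well above background, so no fold is given for them. Cd3d and Ptcra, measured above background on every array, spanned 142-fold and 13.2-fold. Ptcra had a within-group SD of 0.48, against 1.1 to 2.71 for the other 8. Ptcra and Cd3d were well above background on 24 of 24 arrays, Cd3g and Lck on 23, Cd8b on 22, Dntt on 13, Cd3e and Cd8a on 11 and Rag1 on 10.

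**Figure D1:**
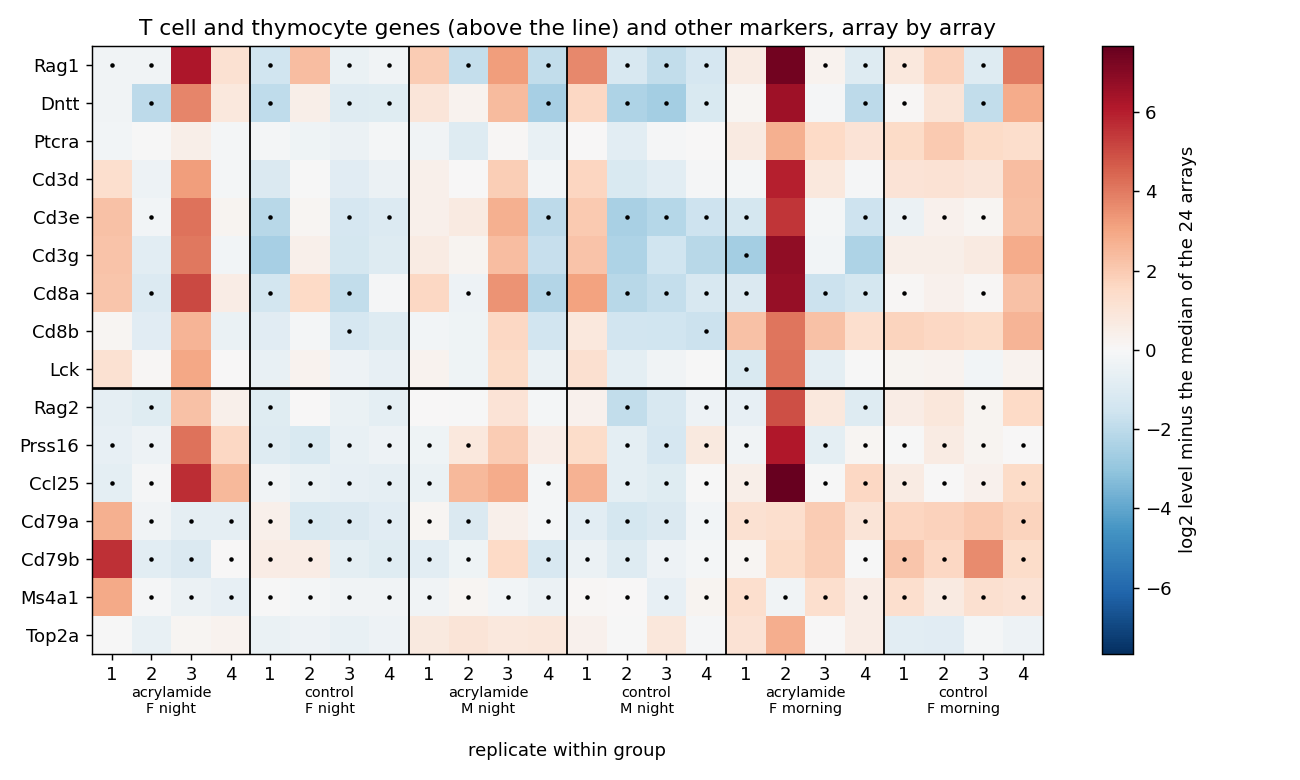
Level of each gene on each array, coloured by the log2 level minus the median of that gene over the 24 arrays. Columns are replicates in 6 groups, and dots mark values not well above background. Below the line are Rag2 and genes picked from longer lists: Prss16 and Ccl25 (thymic epithelium), Cd79a, Cd79b and Ms4a1 (B cells) and Top2a (cell cycle). Foxn1, Psmb11 and Aire are not drawn, and the thymic epithelium list did not move as a whole. Acrylamide replicate 2 of morning females is high in all 9 T cell genes (Cd3g 4.41, Rag1 1.12), and acrylamide replicate 1 of females at night is high in the B cell genes (Cd79b -1.38).

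The same few arrays carried the high values for nearly every member. On acrylamide replicate 2 of the morning females the 6 general T cell genes averaged 1.35 and the mean of Rag1 and Dntt 1.18, and all 9 members were among their 3 highest arrays. Acrylamide replicate 3 of females at night came next, with means of -0.52 and -0.78 and 8 of 9 members among their 3 highest. Acrylamide replicate 3 of males at night had means of -1.95 and -2.95. High values were not limited to treated animals: control replicate 4 of morning females had means of -2.08 and -2.36, and control replicate 1 of males at night had -2.36 and -3.13. On each of these 5 arrays, and on 3 others, all 9 members were well above background. The lowest mean of the general genes, -5.91, was that of control replicate 2 of males at night. In bulk RNA, fewer T cells and less RNA per cell cannot be told apart.

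Acrylamide replicate 1 of females at night differed from this order. Its general T cell mean of -2.66 was the sixth highest of 24, but its Rag1 and Dntt mean of -6.03 ranked 13. Rag1 was at -6.55 there, not well above background, and Dntt at -5.50. B cell genes were high on the same array. Cd79b, a signalling chain of the B cell receptor, was at -1.38 on it and between -8.21 and -3.35 on the other 23. Cd79a, its partner chain, was at -3.80 on it and between -7.92 and -4.56 on the others. Ms4a1, which encodes CD20, was well above background on this array alone, at -4.87. The mean of 6 B cell genes was -2.80 on it, against -5.07 to -4.75 on the other acrylamide and -5.37 to -4.71 on the control arrays of females at night.

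**Figure D2:**
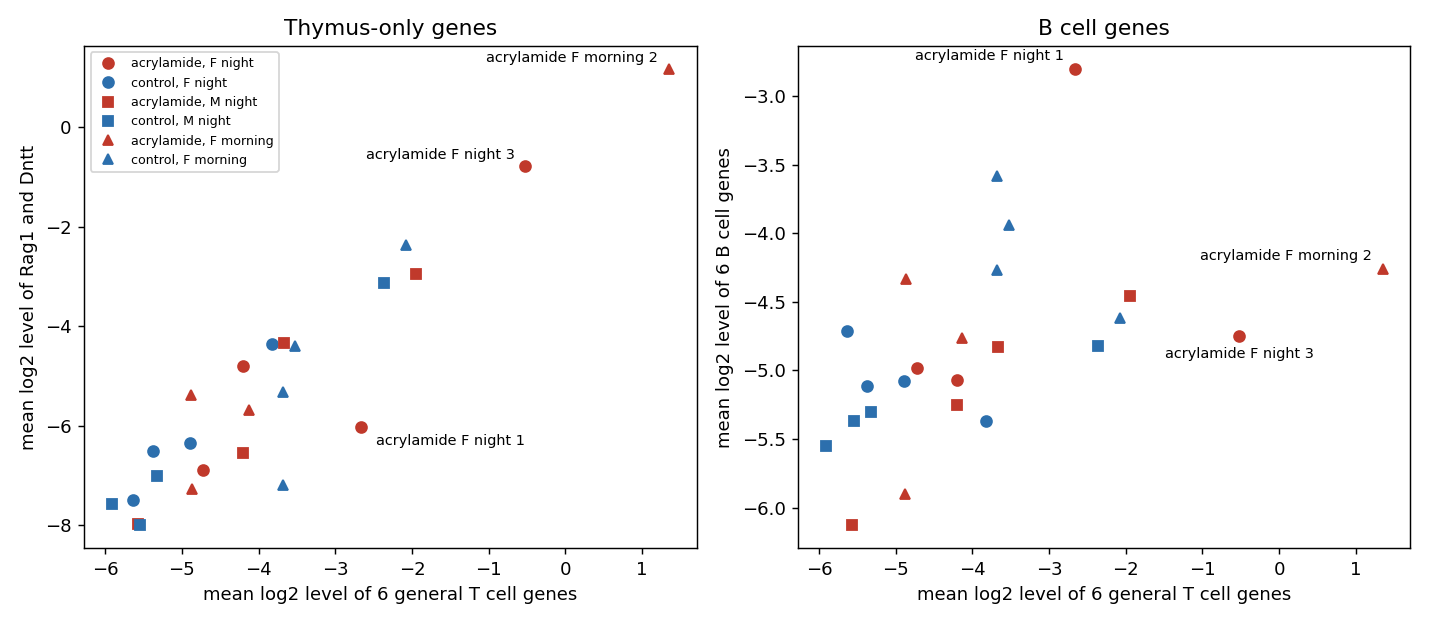
Each point is an array: the mean log2 level of the 6 general T cell genes (x) against the mean log2 level of Rag1 and Dntt (y, left) and of 6 B cell genes (y, right), with colour for treatment and shape for sex and time. Acrylamide replicate 2 of morning females (1.35 and 1.18) and replicate 3 of females at night (-0.52 and -0.78) lie at the upper right on the left, while acrylamide replicate 1 of females at night (-2.66) stands highest for the B cell genes (-2.80) and not for Rag1 and Dntt (-6.03).

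Genes of the thymic epithelium, the stroma in which T cells mature, were read beside these. Prss16, a serine protease of cortical epithelium, was at -0.84 on acrylamide replicate 2 of morning females and -2.77 on acrylamide replicate 3 of females at night, and between -8.27 and -5.01 on the other 22 arrays. Ccl25, a chemokine that attracts thymocytes, was at -0.02 and -2.04 on the same arrays and between -8.60 and -4.83 elsewhere. Both were also well above background on acrylamide replicate 4 of females at night (-5.35 and -5.22), acrylamide replicate 3 of males at night (-5.01 and -4.83) and control replicate 1 of males at night (-5.58 and -5.04). Neither was on acrylamide replicate 1 of females at night (-7.58 and -8.42) or on control replicate 4 of morning females (-6.95 and -6.23). The list did not move as a whole. Foxn1, the transcription factor that defines thymic epithelium, stayed between -6.86 and -4.22 on all 24 arrays, and was at -4.65 and -5.74 on the arrays with the most Prss16. Psmb11, a proteasome subunit of cortical epithelium, lay at -1.44 and -3.84 on those arrays and between -4.55 and -1.20 over all 24. Aire, a regulator in medullary epithelium, was well above background only on control replicate 2 of morning females, at -5.95. Of 13 listed epithelial genes 7 were tested, and their mean was highest on acrylamide replicate 2 of morning females, at -1.57, against -4.95 to -2.35 on the other arrays. The part of thymic or B cell material in the results below was not tested.

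Within sex and time, deviations of the members from the stratum mean were strongly correlated over the 24 arrays. Pearson's r was 0.94 between Rag1 and Dntt and 0.98 between Cd3e and Cd3g, and among the 8 members other than Ptcra it ranged from 0.82 to 0.98. Ptcra, well above background on all 24 arrays, also where Rag1 and Dntt were not, correlated with the others at 0.50 to 0.78. With Rag1 and Dntt, counted with it as thymus-only, r was 0.65 and 0.60. These are descriptions over arrays that share slides, and the high arrays carry much weight in them. Among the other probes, the closest to the mean of the general T cell genes were Cd6 (r = 0.989), a T cell surface receptor, Cd247 (0.980), the zeta chain of the receptor complex, and Sh2d1a (0.974), a signalling adaptor. Arl5c, Camk4, Cd27, RT1-T18, Zap70 and LOC299915 were also among the 10 closest, at 0.950 to 0.969. Without the 2 arrays farthest from the median the values of the 10 were 0.889 to 0.976. A second probe for Cd6, the brighter of them and the one counted in the list below, behaved differently, at 0.13 (SE 0.18) for acrylamide minus control in females at night. The closest to the mean of Rag1, Dntt and Ptcra were RT1-T18 (0.950), Arl5c (0.926), Mgat5b (0.924), Camk4 (0.917) and Rag2 (0.906), the partner of Rag1. Cd6, Sh2d1a, ENSRNOT00000019313, Cd247 and Sh2d2a followed at 0.891 to 0.904. Without the same 2 arrays these 10 values were 0.763 to 0.910. With no centring on the stratum, 9 of the 10 probes were shared for the general and 7 of 10 for the thymus-only mean.

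The comparison of acrylamide with control asks whether the exposure went with a change in these genes, first in females at night. All 9 members had higher means with acrylamide, by a median log2 difference of 1.62 against 0.02 over all tested probes, but none of the 8 tested passed the threshold (limma, adjusted p = 1 for each). With normexp background correction, another way of removing the background, that median was 1.01. In this comparison 0% of the 23414 probes passed, and 414 had an unadjusted p under 0.05, none of them a member. Cd3e, the epsilon chain of CD3, was at -3.64, -6.08, -1.72 and -5.68 in acrylamide arrays and at -8.00, -5.73, -7.17 and -6.92 in control arrays. The signal was well above background on 3 of the 4 treated arrays and on 1 control array. Its difference was 2.68 (SE 1.36, 95% interval -0.15 to 5.51), and 1.13 with normexp. Cd3g was at -0.15, -3.17, 1.68 and -2.56 with acrylamide and at -4.93, -1.96, -3.73 and -3.38 in controls, a difference of 2.45 (SE 1.58). For Cd3e, acrylamide replicates 1 and 3 were well above every control and replicate 4 was just above, while for Cd3g replicates 1 and 3 exceeded every control and the other 2 lay within the control range. Rag1 was at -6.55, -6.52, -0.06 and -5.13 with acrylamide and at -7.77, -3.92, -6.80 and -6.55 in controls. It was well above background on at most 2 arrays of any group and was therefore not tested. Dntt was at -5.50, -7.25, -1.50 and -4.46 with acrylamide and at -7.21, -4.79, -6.21 and -6.15 in controls, a difference of 1.41 (SE 1.53). It was well above background on 3 acrylamide arrays and 1 control array. For Rag1 replicate 3 alone exceeded every control, whereas for Dntt replicates 3 and 4 did.

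Among the other members in females at night, Cd8a differed by 2.15 (SE 1.67), Cd3d by 1.62 (SE 1.02), Lck by 1.40 (SE 0.84) and Cd8b by 1.16 (SE 0.73). Ptcra was at -2.69, -2.50, -2.04 and -2.63 with acrylamide and at -2.64, -2.80, -2.92 and -2.62 in controls, a difference of 0.28 (SE 0.33). That SE pools the spread of all 6 groups, while the SD was 0.29 in these acrylamide and 0.14 in these control arrays. The acrylamide and control arrays overlapped for 9 of 9 members, while 3.64% of tested probes lay wholly higher and 1.69% wholly lower with acrylamide. Without acrylamide replicate 3 all 9 differences stayed positive, but their median was 0.77 and that of the thymus-only genes was 0.19, against 1.41 with it. The 0.19 is the difference of Rag1, which was not tested, and the 1.41 that of Dntt, which was 0.35 without that array. Without that array the median of the general T cell genes was 0.95, against 1.88 with it. Cd8a entered the test through the acrylamide arrays of females at night alone, Cd3e through acrylamide arrays at night of both sexes, and Dntt through the 3 acrylamide groups, so their passing the brightness filter depended on treated arrays. Cd3d, Cd3g, Cd8b, Lck and Ptcra passed it in all 6 groups.

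Other receptor genes were counted from a list of 26 signalling and coreceptor genes, 19 of them tested. In females at night 16 of 19 had positive differences with a median of 0.87, and 0 passed. The list mean was -2.42, -3.87, -1.44 and -3.53 in acrylamide arrays and -4.19, -3.31, -3.87 and -3.88 in controls. A list of 25 thymocyte development genes, 21 tested, had a median of 0.09 with 13 positive and 0 passing, and a list of 15 genes of mature T cells, 11 tested, had a median of 0.04 with 6 positive and 0 passing. B cell genes were positive in 6 of 6 with a median of 0.68 and 0 passing. Lists of other cells moved on these arrays too, also with 0 passing. Skeletal muscle genes were positive in 0 of 10 (median -1.31), with a list mean of 3.84 to 7.09 in acrylamide and 6.74 to 7.38 in control arrays. Macrophage genes were positive in 1 of 11 (median -0.31), with a list mean of -0.74 to -0.15 in acrylamide and -0.31 to -0.07 in control arrays. Cell cycle genes were positive in 19 of 19 (median 0.39). Their part in the members' differences was not tested.

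**Figure D3:**
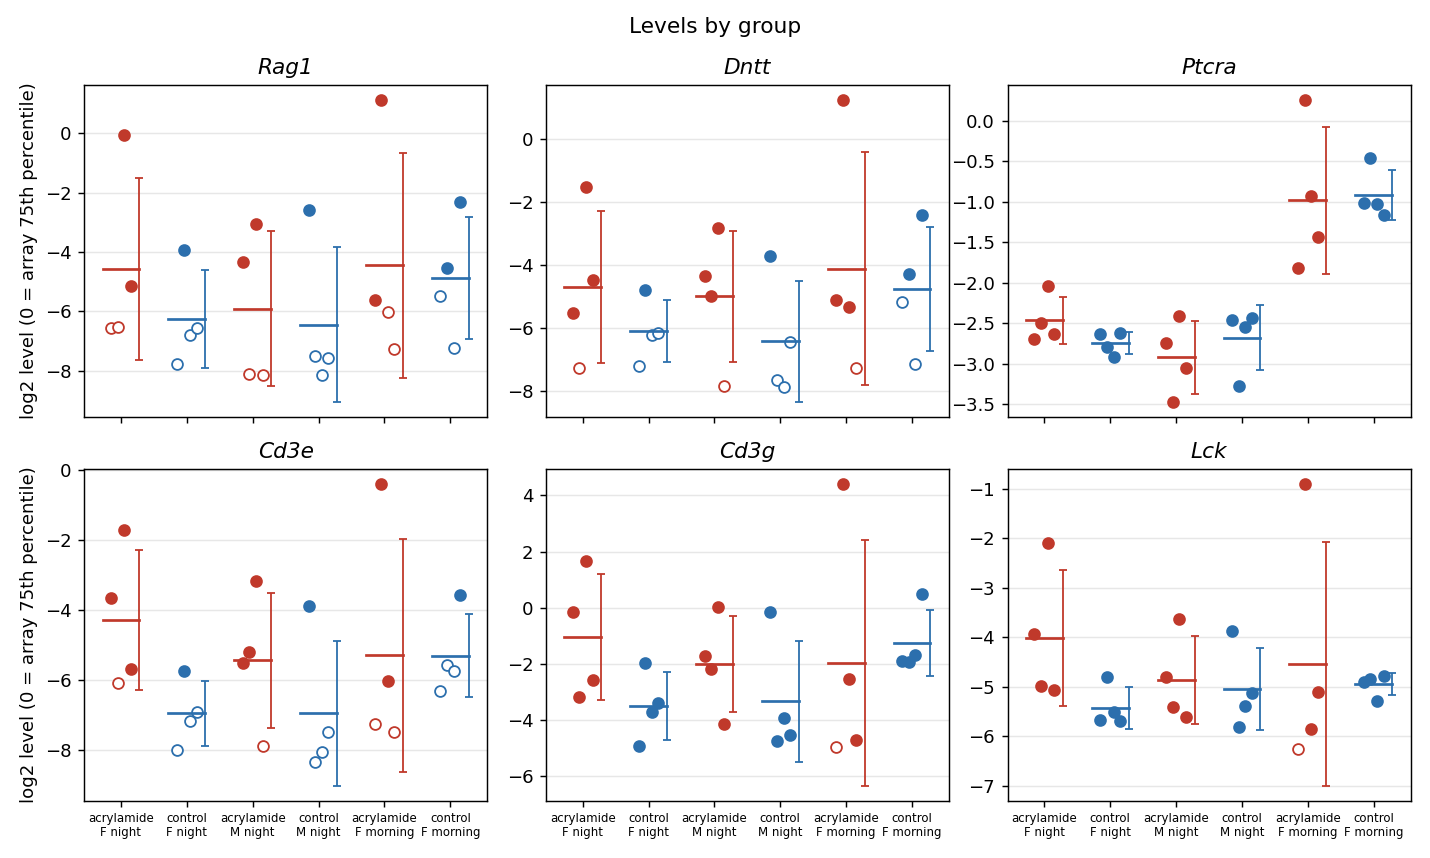
Log2 levels of 6 of the genes on each array by group, with acrylamide left of control in each stratum; open circles are not well above background, horizontal lines are means and bars are ± SD (n = 4). In every stratum the acrylamide and control arrays overlap, and the highest acrylamide array of females in the morning (Cd3g 4.41, Lck -0.90) is far above the rest of its group.

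In males at night 8 of 9 members had higher means with acrylamide, by a median of 0.85 against -0.01 over all probes, and none of the 8 tested passed (limma, adjusted p 0.578 to 0.933). No probe at all passed in males at night (0%), and 3203 had an unadjusted p under 0.05, none of them a member. Cd3e was at -5.50, -5.19, -3.16 and -7.88 with acrylamide and at -3.89, -8.36, -8.05 and -7.50 in controls, a difference of 1.52 (SE 1.36). Dntt was at -4.33, -4.97, -2.83 and -7.82 with acrylamide and at -3.69, -7.63, -7.88 and -6.44 in controls, a difference of 1.42 (SE 1.53). Each was well above background on 3 acrylamide arrays and 1 control array, so these differences include control values near background. Both genes were high in control replicate 1 and low in acrylamide replicate 4, so the groups overlapped. Acrylamide replicate 4 also stood apart in other lists: the mean of 3 parathyroid genes was -1.74 on it, against 3.46 to 4.22 on the other male arrays, and that of the 7 thymic epithelial genes was -4.95, against -3.91 to -2.73. Rag1 was at -4.32, -8.10, -3.07 and -8.14 with acrylamide and at -2.57, -7.50, -8.13 and -7.56 in controls. Its highest value in males was thus in a control. Cd3g differed by 1.33 (SE 1.58), Cd8a by 1.12 (SE 1.67), Cd8b by 0.85 (SE 0.73), Cd3d by 0.63 (SE 1.02), Lck by 0.18 (SE 0.84) and Ptcra by -0.23 (SE 0.33). The median of the 9 was 0.18 without acrylamide replicate 3, 1.30 without acrylamide replicate 4 and 1.82 without control replicate 1. With normexp it was 0.32 and with array weights, which let arrays that stand apart count less, 0.47. The groups overlapped for 9 of 9 members, against 2.80% of probes wholly higher and 1.54% wholly lower. Of the 19 receptor signalling genes 9 were positive, with a median of -0.11. Skeletal muscle genes were positive in 0 of 10 (median -1.77) and macrophage genes in 1 of 11 (median -0.50), with 0 passing in either list. The skeletal muscle mean was 7.46, 1.80, 6.81 and 5.45 in acrylamide and 7.64, 6.84, 6.84 and 7.92 in control arrays. Acrylamide replicate 2 thus stood apart in that list.

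In females in the morning the members had nearly equal means with and without acrylamide but a much wider spread with it. The median difference was 0.29 against -0.10 over all probes, 6 were positive and 3 negative, and none of the 8 tested passed (limma, adjusted p 0.613 to 0.998), beside 1.83% of all probes (0.389% as higher and 1.44% as lower). No member had an unadjusted p under 0.05, against 23.5% of all probes. Rag1 was at -5.63, 1.12, -6.02 and -7.28 with acrylamide and at -5.48, -4.53, -7.24 and -2.31 in controls, a difference of 0.44 (SE 1.78). Cd3g was at -4.97, 4.41, -2.55 and -4.71 with acrylamide and at -1.91, -1.93, -1.67 and 0.49 in controls, a difference of -0.70 (SE 1.58). Acrylamide replicate 2 was the highest of the 8 arrays for every member, and for Cd3g the other 3 acrylamide arrays were below all 4 controls. Cd8a was at -7.21, 0.59, -7.73 and -7.44 with acrylamide and at -6.02, -5.78, -6.04 and -3.86 in controls, with an SD of 4.03 against 1.05. Its arrays had the same order, but Cd8a was well above background on only 1 acrylamide and 2 control arrays. For Cd3g these counts were 3 and 4. The order of the low Cd8a values is therefore one of values near background. Dntt differed by 0.64 (SE 1.53), Cd8b by 0.63 (SE 0.73), Lck by 0.42 (SE 0.84), Cd3d by 0.29 (SE 1.02), Cd3e by 0.01 (SE 1.36), Cd8a by -0.02 (SE 1.67) and Ptcra by -0.06 (SE 0.33).

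These morning values rest on single arrays. Without acrylamide replicate 2 the median of the 9 differences was -1.15, with 8 negative and 1 positive. Without acrylamide replicate 1, the array low in Tg, all 9 were positive with a median of 0.70, and without control replicate 4 it was 0.58. Without control replicate 3 it was -0.14, with 6 negative. The slides split in the same way. On slide 3, with 2 acrylamide and 3 control arrays, all 9 members were higher with acrylamide, by 0.50 to 3.49. On slide 4, with 2 acrylamide arrays and 1 control array, all 9 were lower, by values from -5.33 to -0.47. That control is replicate 4, the control array with the highest general T cell mean, and acrylamide replicate 2 is on slide 3. With slide as a block the median of the 9 was 0.64, with 8 positive, but with array row as a block it was -0.19, with 2 positive and 7 negative. With array weights it was 1.33, with 9 positive. The groups overlapped for 9 of 9 members, against 1.92% of probes wholly higher and 6.55% wholly lower with acrylamide.

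Of the 19 receptor signalling genes in females in the morning 10 were positive with a median of 0.03 and 0 passing. The thymocyte development list had a median of 0.11 and the mature T cell list -0.43, also with 0 passing. Without acrylamide replicate 1 these 3 medians were 0.20, 0.33 and -0.17. Some cell cycle genes passed in the fit to all 24 arrays: 4 of 19 were higher with acrylamide, and 19 of 19 were positive. They were Top2a, a topoisomerase (1.68, SE 0.38, limma adjusted p = 0.0407), the centromere proteins Cenpf (1.63, SE 0.38, adjusted p = 0.0423) and Cenpa (1.53, SE 0.39, adjusted p = 0.0489), and the cyclin Ccnb2 (1.43, SE 0.36, adjusted p = 0.0469). The mean of that list was -1.36, 0.23, -1.59 and -1.71 with acrylamide and -2.51, -2.13, -1.85 and -1.83 in controls. It was therefore highest on the array with the highest T cell genes. The lowest acrylamide value, -1.71, was just above the highest control value, -1.83. The share of cycling thymocytes in this list was not tested. Of 12 follicular genes 2 passed as lower with acrylamide, the transcription factor Foxe1 (-1.14, SE 0.26, limma adjusted p = 0.0415) and the peroxide-producing oxidase Duox2 (-0.82, SE 0.20, adjusted p = 0.0453), in a group that includes the array low in Tg. None of these 6 calls remained with array row, slide or replicate number as a block, with array weights, with only the arrays of the comparison, or without acrylamide replicate 1 or any 1 of the 4 control arrays, settings added for these lists after seeing the data. With normexp 1 of the 6, Foxe1, remained, and without acrylamide replicate 2 there were 2 cell cycle calls, Cenpf and Top2a, and 16 of 19 were positive. Without acrylamide replicate 4 the cell cycle calls numbered 12. The calls without acrylamide replicate 3 are not given here. The 12 follicular genes had a median of -2, and -0.70 without acrylamide replicate 1.

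**Figure D4:**
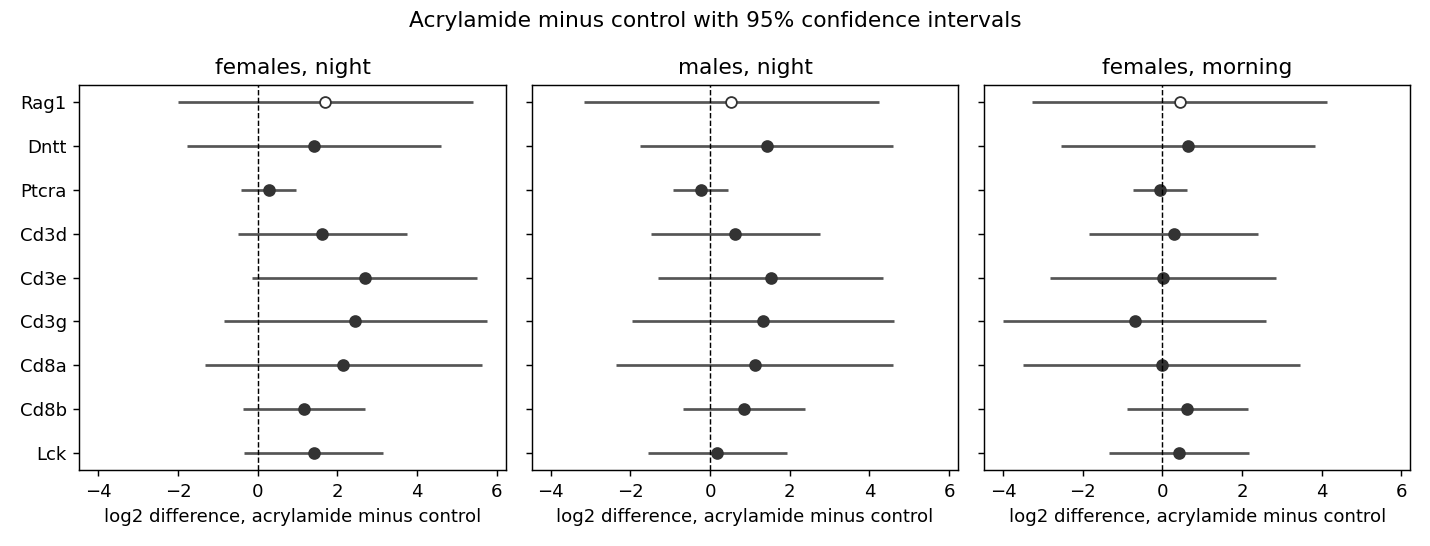
Differences in log2 level, acrylamide minus control, for each gene in the 3 strata, with 95% confidence intervals from the limma fit; the open symbol is Rag1, which was not tested. All intervals include 0, all 9 differences are positive in females at night, and the intervals of Ptcra (SE 0.33) are the narrowest.

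Averaged over the 3 strata, 8 of 9 members were higher with acrylamide, by a median of 0.89, and 0 of 8 tested passed, beside 0.00427% of all probes (limma). Cd8b came nearest, with a mean difference of 0.88 (SE 0.42, limma adjusted p = 0.748, unadjusted 0.0499), when 1563 probes (6.68%) had an unadjusted p under 0.05. The acrylamide difference in males at night minus that in females at night had a median of -1.03 over the members, and 0 of 8 passed, as did 0% of all probes (limma, adjusted p 0.995 to 1). An unadjusted p under 0.05 was found for 527 probes in that contrast, none of them a member. The acrylamide difference in females at night minus that in females in the morning was positive for 9 of 9, with a median of 1.26 and a largest value of 3.15 (SE 2.24) for Cd3g, and 0 of 8 passed beside 0% of all probes (limma, adjusted p 0.490 to 0.875). Here 3709 probes had an unadjusted p under 0.05, again with no member among them. Both contrasts reuse groups of the comparisons above. Their medians, and that of the average over strata, are given with all arrays only. The medians they draw on moved with single arrays. In females at night the median was 1.62, and 0.77 without acrylamide replicate 3. In females in the morning it was 0.29, with -1.15 without acrylamide replicate 2 and 0.70 without acrylamide replicate 1. In control animals at night, males against females, the members had a median of 0.01 and 0 of 8 passed, beside 0.00854% of probes (limma, adjusted p = 1).

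Night against morning in control females was the comparison in which members passed. All 9 were lower at night, by a median of -1.66, and 2 of 8 passed, when 47.6% of all probes passed and 26.6% passed as lower. Ptcra, the pre-T cell receptor chain, was at -2.64, -2.80, -2.92 and -2.62 at night and at -1.01, -0.46, -1.03 and -1.16 in the morning, a difference of -1.83 (SE 0.33, limma adjusted p = 9.94e-05). Cd8b, the beta chain of the CD8 coreceptor, was at -5.37, -4.61, -5.78 and -5.47 at night and at -2.79, -2.90, -3.02 and -1.90 in the morning, a difference of -2.66 (SE 0.73, limma adjusted p = 0.00503). Night and morning arrays did not overlap for either gene, as for 29.2% of all probes in the same direction and 27.3% in the other. The same order held in acrylamide females, where Ptcra was at -2.69 to -2.04 at night and -1.82 to 0.26 in the morning, with no overlap. Cd8b was at -5.34 to -1.89 at night and -3.20 to -0.39 in the morning in acrylamide females, with overlap. The other 6 tested members had adjusted p from 0.118 to 0.681. Among the 19 receptor signalling genes 4 were lower at night (Sit1, Tcrb, Ubash3a and the brighter Cd6 probe) and 1, Lcp2, was higher. Of 21 thymocyte development genes 7 were lower and 2 higher at night, with Runx3, a transcription factor of the CD8 lineage, at -2.27 (SE 0.26) and Lef1 at -2.25 (SE 0.60). Of 11 mature T cell genes 5 were lower and 2 higher, with the inhibitory receptor Pdcd1 at -2.29 (SE 0.30) and Foxp3, the regulator of regulatory T cells, at -2.11 (SE 0.24). Of 7 thymic epithelial genes 3 were lower, led by Psmb11 at -2.65 (SE 0.22). Collection time cannot be told apart from slide and scan number, and with 47.6% of probes passing, 2 of 8 is not a result about these genes.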

How the data were processed

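Agilent Feature Extraction 10.1.1.1, per the file headers, wrote each spot's processed signal, an intensity (linear scale, background already subtracted), with flags for spots well above background. The deposited series matrix holds log2 values, which followed log2 of the processed signal on each array minus a constant (median 0 per column), with the authors' further steps not given in the sources used here. Probe positions are on rn4, per the file headers.

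Here, spots flagged as uneven or outliers were dropped, log2 values of a probe's spots averaged (45 empty values) and each array's 75th percentile subtracted. A probe was tested if well above background on at least 3 of 4 arrays of at least 1 group. Group means were fitted to all 24 arrays at probe level in limma 3.58.1 (R 4.3.3, files read with data.table, version 1.17.8; 18 residual degrees of freedom), 2-sided, with Benjamini-Hochberg adjusted p under 0.05 over 23414 probes. Each SE and interval draws on the spread in all 6 groups, which was unequal. The fit was tested on simulated data. The gene names of the 9 member probes are the same in both array annotations, which name 3180 other probes differently. For other listed genes the probe with the highest mean was used.

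The members and lists were chosen with earlier results of these data known. Named were all members, listed genes past the threshold (up to 5 per list and comparison by size), defining markers and the 10 probes most correlated with each set's mean. Precision is limited by 4 arrays per group. Males in the morning and plasma hormones were not analysed here. Alternatives were other background correction, normalization, filters, probe choice, array subsets, weights and blocks, and leaving out each array. Results for some single genes named by this rule are not reported here.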

Additional observations from a re-analysis of the deposited data

Results flagged for a closer look

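In 8 of 54 groups of 4 arrays checked, over 6 genes, an array lay far from the other 3 by Dixon's criterion at the 95% level. Chance gives about 1 in 20 for independent groups. These groups share arrays and the members were correlated, so the count cannot be set against that rate. On acrylamide replicate 2 of morning females Cd3d was at 4.76 and Cd8a at 0.59. On control replicate 4 of morning females Cd3d was at 1.13, Cd3g at 0.49 and Cd8a at -3.86. On control replicate 1 of males at night Rag1 was at -2.57 and Cd8b at -3.66. On control replicate 2 of males at night Ptcra was low, at -3.28.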

How the results depend on the processing

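Under every alternative run, 0 members passed in each comparison of acrylamide with control, in their mean, in their differences by sex and time, and in males against females. In night against morning the members passing were 2, but 4 when the fit held only the arrays of the comparison and 5 with replicate number as a block. Replicate numbers did not pair the arrays: deviations of same-numbered arrays correlated at -0.237 to 0.356 and 2 of 12 arrays matched best with their own number. Sign changes were limited to small differences in females in the morning and, on leaving out an array, also males at night. In females in the morning Cd3g became 0.07 with normexp background correction and 0.94 with array weights. Cd8a became 0.40 with normexp, 0.43 with quantile normalization, 0.01 with the series matrix, 1.35 with array weights and 0.29 with slide as a block. Ptcra became 0.20 with array weights and 0.15 with slide as a block. With array row as a block Rag1 became -0.19, Dntt -0.02, Cd3d -0.17 and Cd3e -0.55. Leaving out each array in turn, the morning differences ranged from -1.42 to 1.38 for Rag1, -1.15 to 1.69 for Dntt, -0.48 to 0.21 for Ptcra, -1.15 to 0.89 for Cd3d, -1.63 to 0.74 for Cd3e, -2.82 to 0.30 for Cd3g, -2.03 to 0.74 for Cd8a and -0.78 to 1.00 for Lck. In males at night Rag1 ranged from -0.41 to 1.82 and Lck from -0.23 to 0.58. The cause of these sign changes was not tested beyond the arrays left out. Over all probes, the count passing in females in the morning was 429, from 0 (replicate block, array row block, or only the arrays of the comparison) to 1059 (quantile normalization) under other settings and from 2 to 2393 on leaving out an array, so the share of 1.83% is itself unsettled. The fit to the arrays of the comparison alone was not run for the mean over strata, which uses all arrays.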
